A study of Mus musculus with 6 samples.

Results

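Cytochrome P450 genes other than the Cyp2c and Cyp3a groups were followed in intestinal crypt stem cells given circEZH2_005 or a vector. The members were protein-coding genes of the deposited table whose symbol starts with Cyp and a digit, that do not belong to Cyp2c or Cyp3a, and whose counts summed to 60 or more over the 6 samples. The rule kept 34 genes of the 28752 in the table, out of 74 rows with a P450 symbol. Outside Cyp2c and Cyp3a, 18 further protein-coding genes had fewer counts and 6 rows had no protein-coding type. The rule used only the counts summed over all samples, so the presence and overall level of the members are a description. Just inside the minimum were Cyp2e1 with 70 counts (0, 0 and 20 in the vector samples and 6, 21 and 23 in the circEZH2_005 samples) and Cyp46a1 with 71. Just outside it were Cyp2t4 with 59 counts (3, 4 and 7 against 9, 21 and 15) and Cyp11a1 with 58 (8, 14 and 20 against 12, 4 and 0).

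RNA sequencing covered 3 vector samples and 3 samples infected with circEZH2_005 adenovirus, all labelled wild type and all exposed to hypoxia/reoxygenation (H/R). The labels call the cells intestinal crypt stem cells. In the organoid methods of the study, Lgr5+ intestinal stem cells (ISCs) came from Lgr5-green fluorescent protein mice and were grown into crypt-villus organoids. In these mice the reporter marks the dividing cells at the crypt base. Whether the sequenced samples, labelled wild type, came from such reporter mice and were sorted in this way is not given. According to the labels, infection lasted 72 h before H/R and hypoxia lasted 4 h at 2% O2, while the methods of the study give a shorter time after transfection. Every sample went through H/R, so the comparison is circEZH2_005 against vector under H/R, and the age of the mice and the virus given to the vector samples are not given in the sources used here. The labels do not say whether the samples of a group came from separate mice or cultures, so p-values measure the spread between these samples, which may be technical. Poly(A) RNA was selected and the table lists genes, so circEZH2_005 itself was not analysed here.

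Cytochromes P450 are haem enzymes that insert an atom of molecular oxygen into fats, steroids, vitamins, bile acids and drugs. Those of the endoplasmic reticulum take their electrons from P450 oxidoreductase, and the mitochondrial ones from ferredoxin. In the small intestine the enterocytes of the villus are the main site of the drug-metabolising and fatty acid-hydroxylating members, and several of these are induced by ligand-activated factors such as the aryl hydrocarbon receptor, the constitutive androstane receptor and the pregnane X receptor.

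Total counts ranged from 71506487 to 79919893 per sample. Levels are given as CPM, the counts scaled to a common library size, at which 3 counts, the limit that a count of 0 allows in 1 sample, correspond to 0.0375 to 0.0420 CPM. Levels of different P450 genes were compared in FPKM, which accounts for gene length. The marker sums below are in CPM, which does not. The labelled cell type was checked against fixed marker lists. Lgr5 was detected at 15.5 ± 3.19 CPM in vector and 8.45 ± 0.702 CPM in circEZH2_005 samples (SD, n = 3 each), and the 7 stem cell markers summed to 1701 to 2559 and 1180 to 1758 CPM. Most of that sum was Olfm4, at 1758 ± 483 CPM in vector and 1317 ± 287 CPM in circEZH2_005 samples. The 8 enterocyte markers summed to 14389 to 16656 CPM in vector samples and to 15195, 28815 and 22013 CPM in circEZH2_005 samples 1 to 3, so markers of differentiated epithelium were abundant beside those of stem cells. The 9 B and T cell markers, which do not belong to epithelium, summed to 59.7, 189 and 71.3 CPM in vector and to 479, 367 and 263 CPM in circEZH2_005 samples. In such bulk samples fewer cells of a type and less RNA per cell cannot be told apart.

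Among the 34 members, transcript was concentrated in a few genes. Cyp4f14, which encodes an omega-hydroxylase of leukotriene B4, had the highest mean level, 229 FPKM over the 6 samples, and made up 44.0% of the FPKM summed over the 34 members. Next came Cyp2d26 at 51.2 FPKM, Cyp4f16 at 39.8, Cyp4v3 at 36.2, Cyp51 at 31.8, Cyp4f40 at 27.6, Cyp2b10 at 23.2, Cyp2j6 at 19.2, Cyp4b1 at 15.6 and Cyp1a1 at 11.6. Only these 10 members reached 10 FPKM, and together they held 93.3% of the sum. A further 6 members lay between 1 and 10 FPKM and 18 lay under 1 FPKM. In the vector samples Cyp4f14 (219 to 245 FPKM) stood clear of Cyp2d26 (41.4 to 57.5 FPKM). Below them the neighbours were not separated: Cyp51 ranged from 27.0 to 42.2 FPKM in the vector samples, Cyp4f40 from 27.3 to 36.1, Cyp4f16 from 25.5 to 28.2 and Cyp4v3 from 19.2 to 29.6, each overlapping the one before it.

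**Figure D1:**
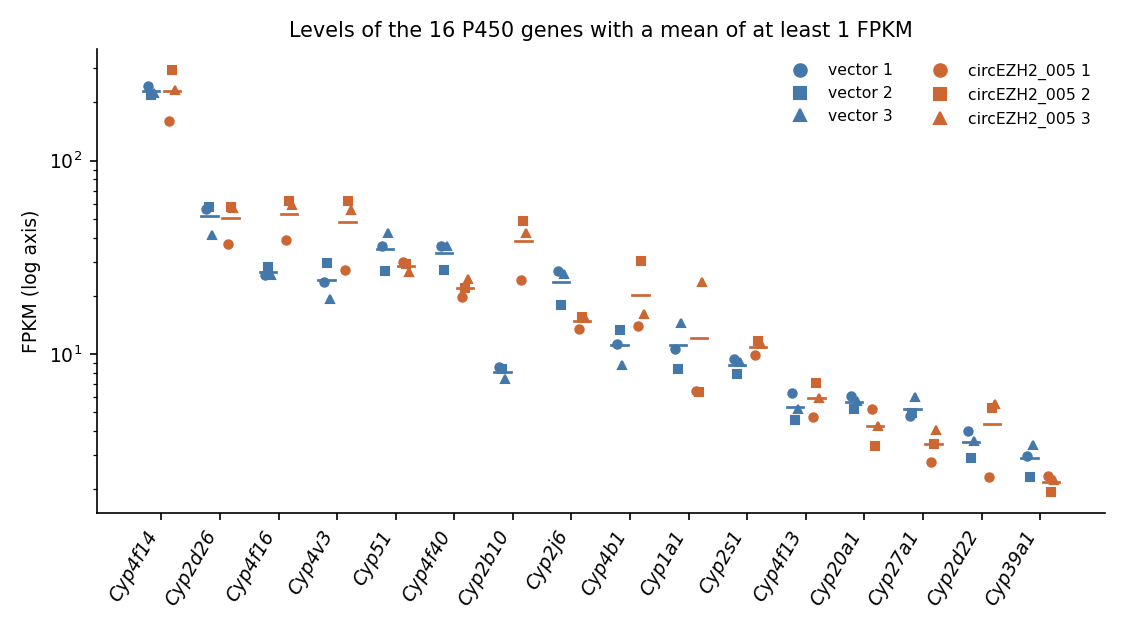
FPKM (vertical log axis) of the 16 P450 genes that averaged 1 FPKM or more, ordered by mean, in 3 vector samples (blue) and 3 circEZH2_005 samples (orange), with symbols for replicate numbers and a bar at each group mean. Cyp4f14 lies above all others in every sample, and of these 16 genes Cyp2b10 has the widest gap between groups (log2 fold change 2.36).

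Between the groups, Cyp2b10 and Cyp4f16 were higher in circEZH2_005 samples, by 5.12-fold and 2.15-fold. With edgeR's quasi-likelihood test and Benjamini-Hochberg adjustment over all 18348 genes tested, these 2 of the 34 members were higher, where 2.69% of all genes tested were, and 0 were lower, where 0.986% of all genes were. At an unadjusted p under 0.05, 6 members were higher (14.0% of all genes) and 4 were lower (9.72%), and by the adjusted p of DESeq2 5 were higher (8.89%) and 2 lower (4.53%). By a second threshold, a fold change over 2 or under 0.5 with p under 0.05 (the study names a fold change over 2 for this sequencing, and the full rule for its circRNA sequencing), 4 members were higher (Cyp2b10, Cyp4f16, Cyp4v3 and Cyp2a5), against 6.22% of all genes, and 1 was lower (Cyp2r1), against 1.34%. Of the 4 higher members, Cyp2a5 passed the filter on low counts through the circEZH2_005 samples alone. With a filter blind to the groups, which left Cyp2a5 out, 3 members were higher by this threshold. The 3 samples of a group all lay above those of the other for 6 members and all below for 5, against 16.4% and 14.2% of all genes tested. The remaining 23 members overlapped. Without vector sample 1 or vector sample 3, 0 members were higher by adjusted p, where 26 of 19125 and 31 of 19086 genes were. Without circEZH2_005 sample 2 or sample 3 it was 1, where 62 of 19098 and 136 of 19146 genes were higher. Without circEZH2_005 sample 1 it was 4, where 553 of 18990 genes were. Without vector sample 2, 2 members were lower, where 334 of 19145 genes were. The log2 fold changes ran from -1.27 to 3.58 with a median of 0.27, beside 0.00 for all genes tested, and 23 were positive. With limma on log2(FPKM + 1) and a mean of at least 0.5 FPKM the members' median was -0.05, beside -0.07 for all genes tested. The 16 members with at least 1 FPKM had a median of 0.16, and the 18 below that level had a median of 0.52. All 34 passed the filter on low counts, of which 21 exceeded its minimum in all 6 samples and 1, Cyp2a5, exceeded it in the circEZH2_005 samples alone.

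**Figure D2:**
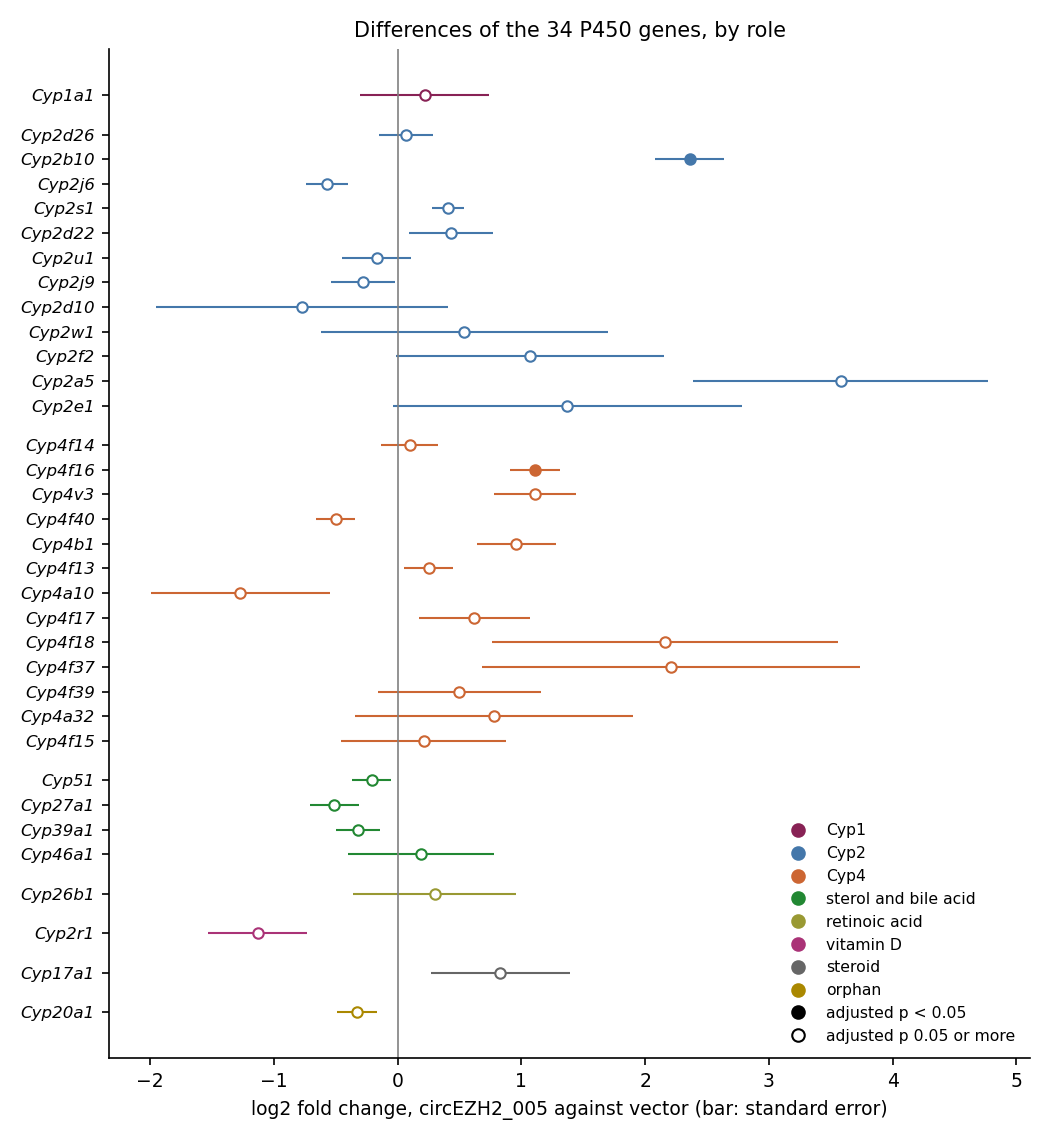
Log2 fold change of circEZH2_005 against vector (horizontal axis, with standard error bars) for the 34 P450 genes, grouped and coloured by role and ordered by level within a role. Filled points passed an adjusted p of 0.05 (Cyp2b10 and Cyp4f16), and the members with few counts carry the widest bars.

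The Cyp2 list held 12 members, with Cyp2r1 placed with vitamin D instead. By adjusted p, 1 was higher and 0 were lower (2.69% and 0.986% of all genes tested). At an unadjusted p under 0.05, 3 were higher and 1 lower (14.0% and 9.72%). By DESeq2, 2 were higher and 1 lower (8.89% and 4.53%). The median log2 fold change was 0.42. Members of this family handle drugs, steroids and arachidonic acid. Cyp2b10 is the classical target gene of the constitutive androstane receptor and is induced by phenobarbital in liver. It was measured at 19.8, 18.8 and 16.9 CPM in vector samples 1 to 3 and at 54.6, 124 and 105 CPM in circEZH2_005 samples 1 to 3. Every circEZH2_005 sample was thus more than 2 times above every vector sample, and circEZH2_005 sample 1 was the lowest of its group. The group means were 18.5 ± 1.44 and 94.6 ± 35.9 CPM (SD, n = 3 each), a fold change of 5.12 (log2 fold change 2.36, standard error 0.28, edgeR adjusted p = 0.0138). The adjusted p was 0.0732 without vector sample 1 and 0.0880 without vector sample 3, with log2 fold changes of 2.40 and 2.29. In FPKM, Cyp2b10 moved from rank 11 among the 34 members in the vector samples to rank 5 in the circEZH2_005 samples. Its part of the FPKM summed over the 34 members, which leaves out Cyp2c and Cyp3a, was 1.65%, 1.78% and 1.54% in the vector samples and 6.0%, 7.40% and 7.17% in the circEZH2_005 samples. The ratio of its counts to those of Cyp2s1, another member on the same chromosome, was 0.388, 0.451 and 0.351 in vector and 1.05, 1.80 and 1.60 in circEZH2_005 samples, so a difference in scaling between samples does not enter it.

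**Figure D3:**
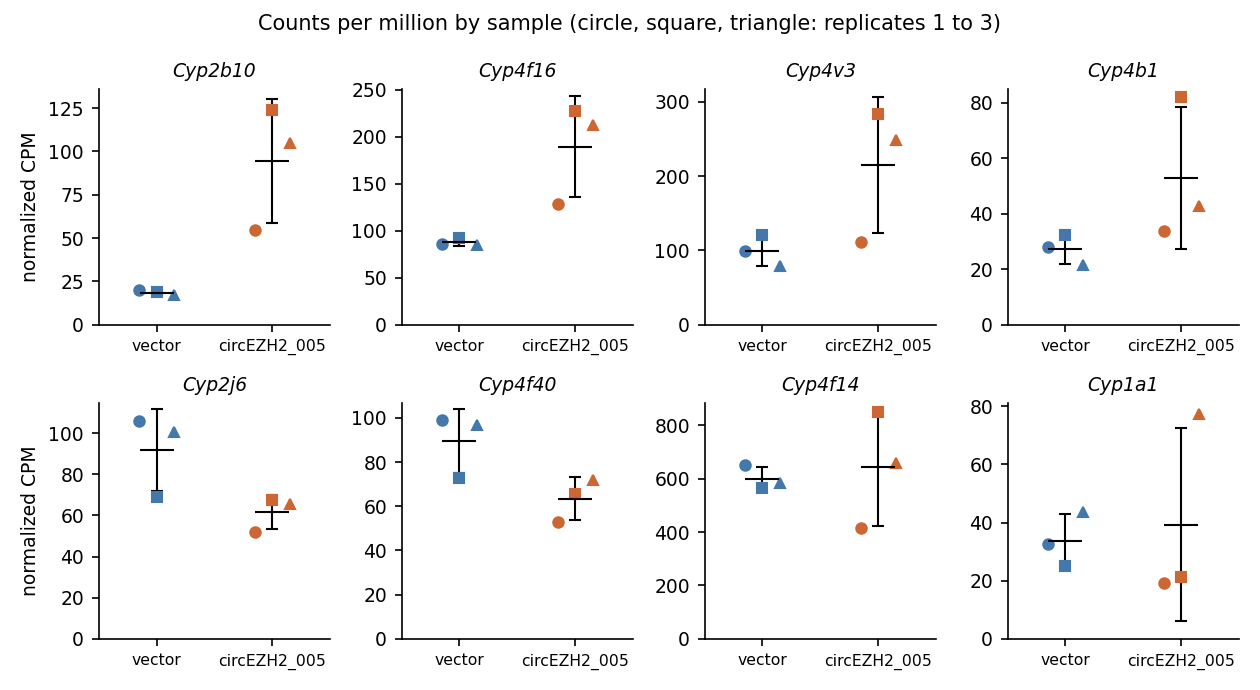
Normalized CPM (vertical axes from 0) of 8 P450 genes in vector (blue) and circEZH2_005 (orange) samples, with circles, squares and triangles for replicates 1 to 3 and black bars for the mean and SD of 3 samples. The groups lie apart for Cyp2b10, Cyp4f16, Cyp4b1, Cyp2j6 and Cyp4f40, and they overlap for Cyp4v3, Cyp4f14 and Cyp1a1.

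Cyp2b10 lies at chr7:25897620-25926624 on the plus strand (GRCm38) and Cyp4f16 at chr17:32536558-32551798 on the plus strand. The RefSeq sequence (GRCm38.p6) just upstream of these genes, the 2 members past the adjusted threshold, was searched on both strands for GCGTG, the core to which the aryl hydrocarbon receptor binds, for the nuclear receptor half-site AGGTCA and for the E-box CACGTG. Each stretch held 1 match, to GCGTG on the other strand, which reads CACGC on the gene's strand and is shown in capitals. The first stretch spans chr7:25897408-25897619 and the second chr17:32536307-32536556, both read on the plus strand.
Cyp2b10 upstream: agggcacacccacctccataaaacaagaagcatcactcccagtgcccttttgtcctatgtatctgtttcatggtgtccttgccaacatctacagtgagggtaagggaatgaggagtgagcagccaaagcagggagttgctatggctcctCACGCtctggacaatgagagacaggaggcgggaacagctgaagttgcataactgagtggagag
Cyp4f16 upstream: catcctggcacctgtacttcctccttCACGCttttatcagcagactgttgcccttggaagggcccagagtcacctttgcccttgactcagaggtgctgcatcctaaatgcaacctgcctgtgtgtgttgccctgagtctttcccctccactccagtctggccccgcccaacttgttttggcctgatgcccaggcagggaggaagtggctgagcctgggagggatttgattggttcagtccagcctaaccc
The RefSeq start of Cyp2b10 lies downstream of the gene start given above, and its stretch was therefore cut to the 212 bases that end just before that gene start, whereas the stretch of Cyp4f16 has 250 bases. Counted from the RefSeq start, the matches lie 97 to 101 bases upstream for Cyp2b10 and 220 to 224 for Cyp4f16. In the full 250 bases before the start, GCGTG was found in 28.2% of 32851 RefSeq promoters, AGGTCA in 14.0% and CACGTG in 6.02%. Of the 28 members matched to a promoter of that table, 11 held GCGTG (39.3%), 1 held AGGTCA (3.57%) and 2 held CACGTG (7.14%). These are matches of letters and not measured binding sites.

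None of the other members of this list passed the adjusted p of edgeR, but DESeq2 called Cyp2j6 (adjusted p = 0.0183) and Cyp2s1 (0.0460). Cyp2d26, of the family that in humans handles many basic drugs, was measured at 111, 110 and 80.04 CPM in vector and at 71.7, 123 and 121 CPM in circEZH2_005 samples, which overlap (log2 fold change 0.07, standard error 0.22, adjusted p = 0.886). Cyp2j6 was at 106, 69.1 and 100 CPM in vector and at 52.1, 67.4 and 65.5 CPM in circEZH2_005 samples. All 3 circEZH2_005 values of Cyp2j6 lay under the lowest vector value, by 1.70 CPM at the closest, and its log2 fold change of -0.57 (standard error 0.17) had an adjusted p of 0.102. Cyp2s1, an epithelial member named here after its values were seen, had 46.9 ± 4.82 against 62.2 ± 8.90 CPM, with groups that did not overlap (log2 fold change 0.41, standard error 0.13, adjusted p = 0.108). Cyp2a5, a coumarin hydroxylase, had 0, 0 and 7 counts in vector and 29, 18 and 39 counts in circEZH2_005 samples. That is the largest fitted log2 fold change of the members, 3.58 with a standard error of 1.19 and an adjusted p of 0.123, and it rests on 93 counts in all. Cyp2e1, the ethanol-inducible member, had a log2 fold change of 1.37 with a standard error of 1.41. The remaining 6 of the list, Cyp2d22, Cyp2u1, Cyp2j9, Cyp2d10, Cyp2w1 and Cyp2f2, had log2 fold changes from -0.77 to 1.07 and adjusted p-values of 0.502 to 0.827.

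The 13 Cyp4 members, mostly omega-hydroxylases of fatty acids and eicosanoids, had a median log2 fold change of 0.62. By adjusted p, 1 of them was higher and 0 were lower (2.69% and 0.986% of all genes tested). At an unadjusted p under 0.05, 3 were higher and 1 lower (14.0% and 9.72%). DESeq2 also called 3 higher and 1 lower (8.89% and 4.53%). Cyp4f16 was measured at 85.9, 92.5 and 85.0 CPM in vector and at 128, 227 and 213 CPM in circEZH2_005 samples. The vector samples lay close together, at 87.8 ± 4.08 CPM, and all circEZH2_005 samples lay above them, at 189 ± 53.6 CPM (SD, n = 3 each). The log2 fold change of Cyp4f16 was 1.11 (standard error 0.20, fold change 2.15, edgeR adjusted p = 0.0349). The adjusted p rose to 0.141 without vector sample 1, 0.152 without vector sample 3, 0.121 without circEZH2_005 sample 2 and 0.0871 without circEZH2_005 sample 3. Cyp4f14, the most abundant member, which lies farther along the same chromosome, was at 649, 565 and 584 CPM in vector and at 416, 851 and 659 CPM in circEZH2_005 samples. Its circEZH2_005 values lie on both sides of the vector values (log2 fold change 0.10, standard error 0.23, adjusted p = 0.842). Cyp4f40, between them on the chromosome, was at 98.9, 72.7 and 96.9 CPM in vector and at 52.7, 65.7 and 72.0 CPM in circEZH2_005 samples. Its groups did not overlap, with circEZH2_005 lower, but the closest samples were 0.66 CPM apart. The log2 fold change of -0.50 (standard error 0.16) had an adjusted p of 0.108 with edgeR and 0.0286 with DESeq2.

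Within single samples, the proportions of these neighbouring Cyp4f genes separated the groups. The count ratio of Cyp4f16 to Cyp4f40 was 0.869, 1.27 and 0.878 with the vector and 2.42, 3.46 and 2.95 with circEZH2_005. The count ratio of Cyp4f16 to Cyp4f14 was 0.132, 0.164 and 0.146 in vector and 0.307, 0.267 and 0.322 in circEZH2_005 samples. Both ratios were higher in every circEZH2_005 sample than in any vector sample, circEZH2_005 sample 1 included. These ratios were chosen after the values of the genes were seen and are a description, since a two-sided exact permutation test with 3 samples per group cannot go below p = 0.1, the value for both. The Cyp4f genes are close paralogs, as are those of Cyp2d, and reads shared between copies could have been split by the counting.

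**Figure D4:**
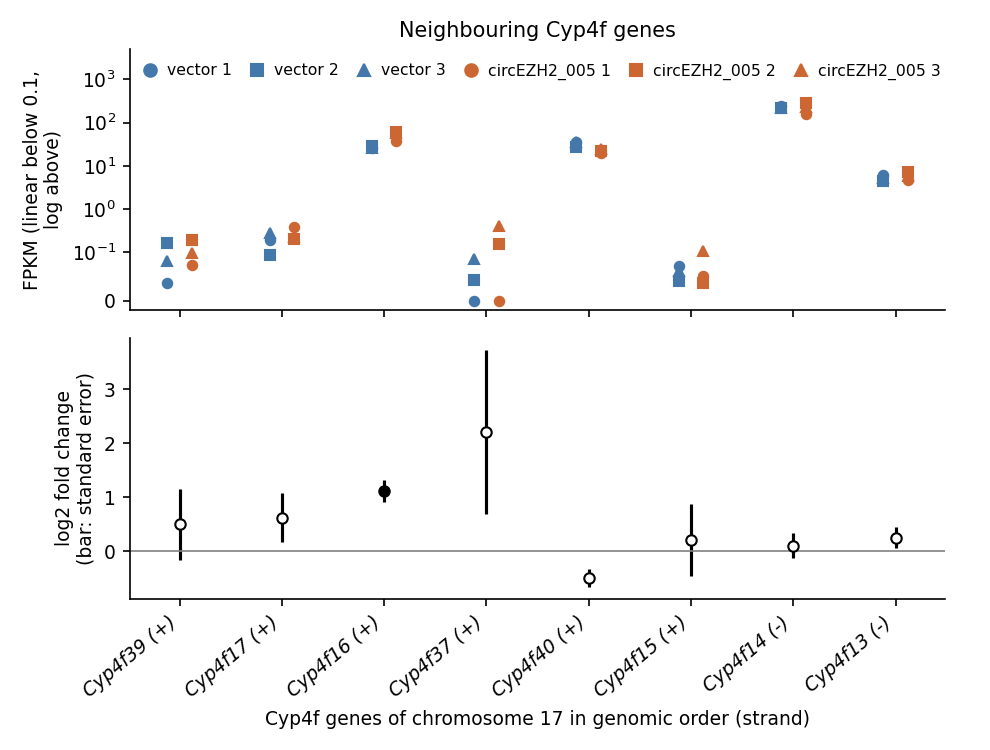
The 8 Cyp4f members of chromosome 17 in genomic order with their strand, as FPKM in each sample (upper panel, vertical axis linear below 0.1 and logarithmic above) and as log2 fold change with standard error (lower panel). Cyp4f16 (filled, adjusted p under 0.05) is at 1.11 and Cyp4f40 at -0.50, while the 4 members under 1 FPKM have wide bars.

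The other Cyp4 genes with a substantial level were Cyp4v3 and Cyp4b1. Cyp4v3, the mouse counterpart of the fatty acid hydroxylase lost in Bietti crystalline dystrophy, was at 99.1, 120 and 78.8 CPM in vector and at 112, 284 and 249 CPM in circEZH2_005 samples. Samples 2 and 3 of circEZH2_005 stood far above all vector samples, but sample 1 lay below vector sample 2. The log2 fold change of Cyp4v3 was 1.11 (standard error 0.33, fold change 2.16, edgeR adjusted p = 0.0950, DESeq2 adjusted p = 0.00256). Without circEZH2_005 sample 1 it was 1.42 with an edgeR adjusted p of 0.0150. An exon of Cyp4v3 overlaps another annotated gene on the same strand, Gm45753, so part of its counts could belong to that gene. Cyp4b1 was at 28.0, 32.2 and 21.4 CPM in vector and at 33.9, 82.0 and 42.8 CPM in circEZH2_005 samples. All circEZH2_005 values of Cyp4b1 lay above the vector values, the lowest by 1.68 CPM (log2 fold change 0.96, standard error 0.32, edgeR adjusted p = 0.124, DESeq2 adjusted p = 0.0131). The remaining 8 Cyp4 members were Cyp4f13, Cyp4f17, Cyp4f18, Cyp4f37, Cyp4f39, Cyp4f15, Cyp4a10 and Cyp4a32. Their log2 fold changes ran from -1.27 to 2.21 with adjusted p-values of 0.337 to 0.888, and 7 of the 8 had between 73 and 382 counts over all samples.

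Cyp1a1, the best known target gene of the aryl hydrocarbon receptor, was the only Cyp1 member that reached the minimum. It was at 32.5, 25.0 and 43.5 CPM in vector and at 19.2, 21.2 and 77.5 CPM in circEZH2_005 samples. Samples 1 and 2 of circEZH2_005 were under all vector samples and sample 3 was above all of them. Its log2 fold change over all samples was 0.22 (standard error 0.52, adjusted p = 0.845), against -0.74 (adjusted p = 0.143) without circEZH2_005 sample 3. The sign also turned with all samples kept, to -0.06 with the replicate number as a block and -0.11 with limma on log2(FPKM + 1). Of 6 listed genes that form the receptor's pathway or respond to it, 5 were tested and 0 passed the adjusted p. At an unadjusted p under 0.05, 3 were higher (14.0% of all genes), and 1 was by DESeq2 (8.89%). Nqo1, the quinone reductase with the highest level of that list, had 34.3 ± 2.87 against 39.98 ± 1.502 CPM (log2 fold change 0.22, standard error 0.09, adjusted p = 0.183). Ahrr, the repressor of the receptor, named after its values were seen, had 0.479 ± 0.255 against 2.09 ± 0.594 CPM (log2 fold change 2.12, standard error 0.47). Its adjusted p was 0.0551 with edgeR and 5.79e-04 with DESeq2.

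None of the members with roles in cholesterol, bile acids, vitamins and hormones passed the adjusted p. The 4 sterol and bile acid members had a median log2 fold change of -0.27. At an unadjusted p under 0.05, 1 was lower (9.72% of all genes), and 0 were by DESeq2 (4.53%). Cyp51, the lanosterol demethylase of cholesterol synthesis, was at 175, 127 and 201 CPM in vector and at 141, 155 and 138 CPM in circEZH2_005 samples. Its circEZH2_005 values fell within the vector range (log2 fold change -0.21, standard error 0.16, adjusted p = 0.475). Its exons overlap those of Akap9 on the other strand, and whether reads were counted by strand is not given. Cyp27a1, a mitochondrial sterol hydroxylase named after its values were seen, was at 11.4, 11.5 and 14.0 CPM in vector and 6.48, 8.96 and 10.4 CPM in circEZH2_005 samples, without overlap (log2 fold change -0.51, standard error 0.20, adjusted p = 0.172). The last members of this list, Cyp39a1 and Cyp46a1, had log2 fold changes of -0.32 and 0.19. Cyp7a1, the rate-limiting enzyme of bile acid synthesis in liver, had 4 counts in all and was not a member.

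Cyp2r1, which makes the circulating form of vitamin D, had 87, 102 and 126 counts in vector and 57, 64 and 23 counts in circEZH2_005 samples. All circEZH2_005 counts were below all vector counts, and sample 3 was the lowest. The log2 fold change was -1.13 (standard error 0.40, fold change 0.455, edgeR adjusted p = 0.141). Cyp26b1, which degrades retinoic acid, had 9, 20 and 39 counts against 18, 45 and 19 (log2 fold change 0.30, standard error 0.66). Cyp17a1, of steroid hormone synthesis, had 24, 27 and 10 counts against 29, 29 and 51 (log2 fold change 0.83, standard error 0.56, adjusted p = 0.416). Cyp20a1, an orphan member without an assigned substrate, had 14.0 ± 1.32 against 11.1 ± 1.81 CPM (log2 fold change -0.33, standard error 0.16, adjusted p = 0.251). None of these 4 passed the adjusted p.

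Across samples, circEZH2_005 sample 1 was the lowest of its group in 13 of the 16 members with at least 1 FPKM, and sample 2 was the highest in 10. Among the vector samples, sample 1 was the highest in 9 of these members and sample 2 the lowest in 10. The FPKM summed over all 34 members was 516, 467 and 481 in vector and 402, 663 and 588 in circEZH2_005 samples, so sample 1 of circEZH2_005 fell below the vector samples and the other two lay above them. Marker sums also differed between samples. The enterocyte sum was lowest in circEZH2_005 sample 1 and highest in sample 2, the order of the summed FPKM of the members within that group. In the vector group the orders differed. Both were highest in vector sample 1, but the summed FPKM was lowest in vector sample 2 and the enterocyte sum in vector sample 3. The B and T cell sum was highest in circEZH2_005 sample 1 and lowest in sample 3. Among the enterocyte markers, 1 of 8 was higher by adjusted p (Apoa4), 5 of 8 had all circEZH2_005 samples above all vector samples, and the median log2 fold change was 0.72. At an unadjusted p under 0.05, 6 of the 8 were higher and 0 lower, and by DESeq2 5 were higher and 0 lower. Among the stem cell markers, 3 of 7 were lower by adjusted p (Lgr5, Smoc2 and Rgmb), and 4 were lower at an unadjusted p under 0.05 and also by DESeq2. Of the 9 B and T cell markers, 0 passed the adjusted p, with a median of 1.79. By fold change and p, 7 were higher (6.22% of all genes), and 6 were by DESeq2. Among the other lists, Clca1 of 5 goblet markers and Pecam1, the only one tested of 3 endothelial markers, were higher by adjusted p. The Paneth, enteroendocrine, tuft, macrophage and fibroblast markers had 0 calls by adjusted p. At an unadjusted p under 0.05, 2 goblet markers were higher and 1, Spink4, was lower (222 ± 1.39 against 182 ± 22.5 CPM). By DESeq2, 2 goblet markers were higher and 0 lower. At an unadjusted p under 0.05, 1 Paneth marker was lower and 1 enteroendocrine marker lay in each direction, and DESeq2 called 1 Paneth marker lower and 1 enteroendocrine marker higher. Hepatocyte markers, listed because many P450 genes are liver genes, summed to 43.9 to 68.5 CPM in vector and 138 to 196 CPM in circEZH2_005 samples. Apoc3, also made by enterocytes, gave nearly all of that sum (log2 fold change 1.76, edgeR adjusted p = 0.0138), and Alb was at or under 0.111 CPM in both group means. The part of these marker differences in the P450 values was not tested. Leaving out circEZH2_005 sample 1 and vector sample 2 together was chosen after seeing the data. These libraries had the highest B and T cell sums of their groups. They were also the lowest of their groups in 13 and 10 of the 16 members, so these traits cannot be told apart. Without them, 6 members were higher (7.83% of all genes) and 2 lower (2.56%) by edgeR adjusted p. The log2 fold change of Cyp2b10 was then 2.63. Since circEZH2_005 sample 1 held the lowest Cyp2b10 value of its group, leaving it out raises that difference in advance. These values are a description and no support.

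**Figure D5:**
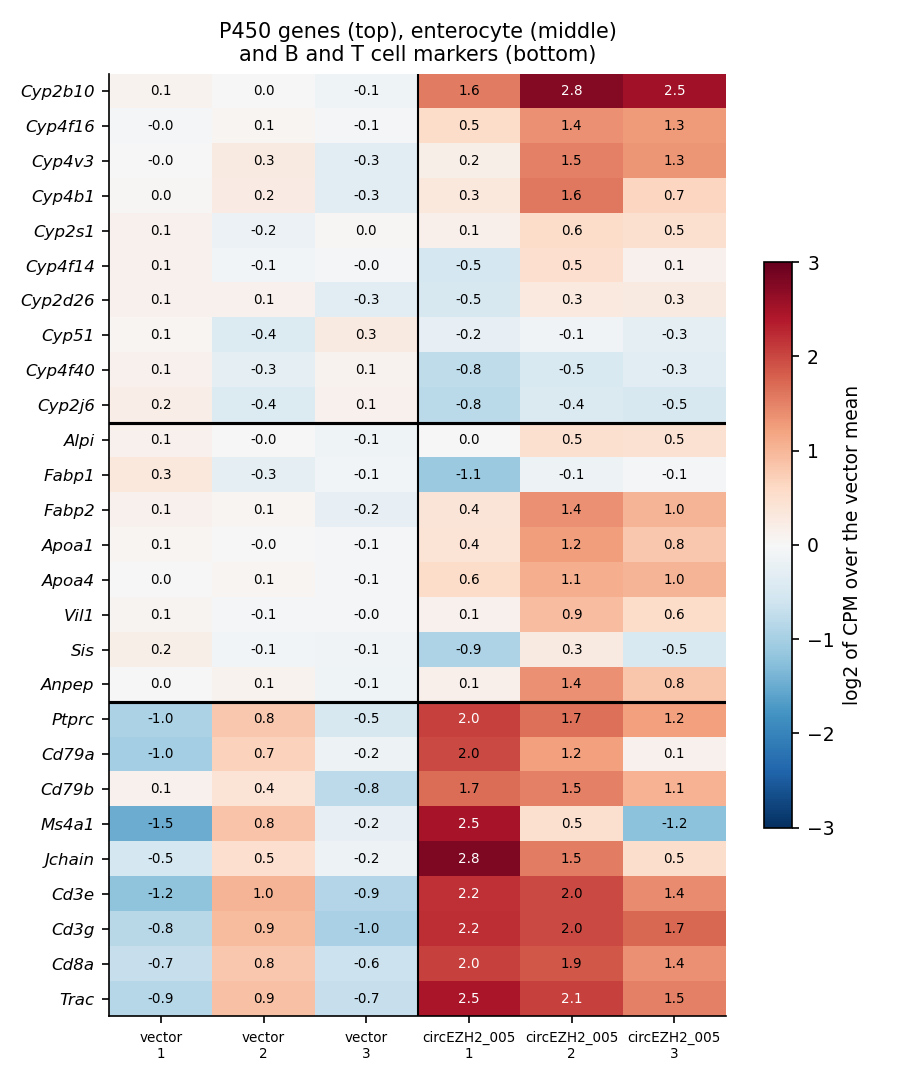
Log2 of CPM over the vector mean in each of the 6 samples (columns) for 10 P450 genes (top), 8 enterocyte markers (middle) and 9 B and T cell markers (bottom), with the value printed in each cell. Cyp2b10 is high in all circEZH2_005 samples, several P450 genes and enterocyte markers are highest in circEZH2_005 sample 2, and the B and T cell markers are highest in circEZH2_005 sample 1 and also raised in vector sample 2.

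Genes that serve the P450 enzymes were examined in 5 lists with 59 names, of which 58 were in the table and 53 were tested. By adjusted p, 2 were higher and 2 were lower, against 2.69% and 0.986% of all genes tested. At an unadjusted p under 0.05 the shares of all genes were 14.0% and 9.72%. Among 9 electron donors, 1 was higher and 0 were lower. Por, the oxidoreductase that supplies all P450 enzymes of the endoplasmic reticulum, was at 108, 91.5 and 102 CPM in vector and at 148, 182 and 145 CPM in circEZH2_005 samples. The groups did not overlap (100 ± 8.29 against 158 ± 20.8 CPM, log2 fold change 0.66, standard error 0.12, edgeR adjusted p = 0.0325). Leaving out vector sample 1, vector sample 3, circEZH2_005 sample 2 or circEZH2_005 sample 3 raised the adjusted p of Por to 0.116, 0.138, 0.0868 and 0.0609. Cyb5b, the mitochondrial outer membrane cytochrome b5 and the most abundant donor, had 863 ± 89.2 against 645 ± 103 CPM (log2 fold change -0.42, standard error 0.14). Its adjusted p was 0.124 with edgeR and 0.0360 with DESeq2. Of 12 genes of haem synthesis and breakdown, 0 passed with edgeR or DESeq2, and 1 was higher and 1 lower at an unadjusted p under 0.05. Alas1, the rate-limiting enzyme of haem synthesis, had 126 ± 0.900 against 164 ± 28.9 CPM (log2 fold change 0.38, standard error 0.13, adjusted p = 0.124).

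Of 17 nuclear receptors and cofactors tested, 0 passed the adjusted p. At an unadjusted p under 0.05, 5 were higher (14.0% of all genes), and 3 were by DESeq2 (8.89%). Hnf4a, the most abundant, had 977 ± 8.20 against 1127 ± 35.6 CPM (log2 fold change 0.21, standard error 0.08, adjusted p = 0.171). The receptors known for regulating Cyp2b10 and its relatives are named here after their values were seen. The constitutive androstane receptor gene Nr1i3 had 23.3 ± 3.23 against 21.2 ± 4.57 CPM (log2 fold change -0.14, edgeR adjusted p = 0.698). The pregnane X receptor gene Nr1i2 had 77.5 ± 6.23 against 96.6 ± 6.87 CPM (log2 fold change 0.32, edgeR adjusted p = 0.0943, DESeq2 adjusted p = 0.0437).

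The retinoid handling list held the remaining calls, with 1 of 10 tested genes higher (2.69% of all genes) and 2 lower (0.986%). Bco1, which cleaves beta-carotene to retinal, was at 2.28, 1.85 and 2.22 CPM in vector and at 9.47, 13.6 and 5.90 CPM in circEZH2_005 samples (log2 fold change 2.19, standard error 0.31, adjusted p = 0.0207). Lrat, which esterifies retinol for storage, was at 19.2, 15.5 and 19.2 CPM in vector and at 7.37, 8.08 and 10.8 CPM in circEZH2_005 samples (log2 fold change -1.04, standard error 0.18, adjusted p = 0.0302). For both genes no circEZH2_005 sample overlapped a vector sample. Their adjusted p-values rose above 0.05 without vector sample 1 (0.0975 and 0.128), without vector sample 3 (0.107 and 0.130) and without circEZH2_005 sample 2 (0.0629 and 0.120). Rbp2, the intestinal retinol-binding protein and by far the most abundant of the list, had 1502 ± 278 against 1489 ± 439 CPM (log2 fold change -0.01, standard error 0.23, adjusted p = 0.983).

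The Cyp2c and Cyp3a genes of the same samples had more calls for their number. Of their 12 tested genes, 4 were higher by adjusted p (Cyp2c55, Cyp2c66, Cyp3a11 and Cyp3a25), against 2.69% of all genes, and 0 were lower, against 0.986%. Their median log2 fold change was 0.68. The difference between these shares and those of the 34 members was not tested.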

How the data were processed

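RNA of 6 samples, 3 vector and 3 circEZH2_005, was sequenced, and samples were grouped by their titles. Columns named as a negative control were matched to the vector group, since no other control exists in the labels. The authors deposited raw counts per gene, without normalization, and FPKM values per gene, which they computed before deposition. The submitters' processing notes name cutadapt 1.9, HISAT2 2.0.4, StringTie 1.3.4d, DESeq2 and the build mm10. How reads of close paralogs were assigned, and the use of strand, are not given in the sources used here.

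Counts were filtered with filterByExpr (minimum count 10) and scaled with TMM. The groups were compared over 18348 genes by quasi-likelihood (edgeR 4.0.16, R 4.3.3) with no covariate and with Benjamini-Hochberg adjustment. The design named a count test if the table held counts, which it did. Standard errors were obtained as the absolute log2 fold change over the root of the F statistic. Calls used an adjusted p under 0.05, or a fold change over 2 or under 0.5 with p under 0.05. Limits from counts cover counting error only. Alternatives were no filter, a filter blind to the groups (0.5 FPKM or more on average), scaling by median of ratios, DESeq2 1.42.0, limma 3.58.1 on log2(FPKM + 1) and log2(FPKM + 0.1), a replicate block, each sample left out and a member minimum of 300 counts. Leaving out 2 samples together was added after seeing the data. The scripts were tested on simulated data.

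The members and lists were chosen with earlier results of these data known. Genes named were the members past either threshold, the 10 with the highest mean FPKM, the highest of each role, those next to the minimum of 60 counts and, of the partner lists, those past the adjusted threshold and the highest of each list, and other genes are marked where they are named. The result of 1 partner gene is not reported here. All 34 members were found in GENCODE M21 (GRCm38), 33 with the same start and end, and exons of 7 overlap those of another gene. Upstream sequences come from RefSeq (GRCm38.p6).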

Additional observations from a re-analysis of the deposited data

How the results depend on the processing

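There were 3 samples per group, and 17 of the 18 members under 1 FPKM had fewer than 500 counts over all samples. The cause of the changes below was not tested, but leaving out a sample leaves fewer samples: over all genes tested, 493 were higher in the comparison as reported, 26 without vector sample 1, 31 without vector sample 3 and 1098 without vector sample 2. By adjusted p, DESeq2 called 1632 of 18348 genes higher and 831 lower. The counts were 132 and 37 of 28752 without a filter, and 572 and 237 of 13278 with the blind filter. They were 241 and 36 of 18348 with the replicate block, and 1449 and 474 of 18503 without vector sample 2 and circEZH2_005 sample 1.

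The 2 members higher by adjusted p became 1 without a filter on low counts, 5 with DESeq2, between 0 and 4 when a single sample was left out, and 6 without vector sample 2 and circEZH2_005 sample 1 together, an alternative chosen after seeing the data. The 0 lower members became 2 with DESeq2, 0 to 2 with a sample left out and 2 without both samples. The 4 members higher by fold change and p became 3 with the blind filter and 3 with a minimum of 300 counts. They became 1 with limma on log2(FPKM + 1) or log2(FPKM + 0.1), and 2 to 6 with a sample left out. The 1 lower by fold change and p, Cyp2r1, became 0 with a filter blind to the groups, with limma at either pseudocount and without both samples. With a sample left out it was 0 to 1, which was Cyp4a10 in place of Cyp2r1 without circEZH2_005 sample 3. The 2 partner genes that were higher became 1 without a filter, 7 with DESeq2, 5 without both samples and 0 to 3 with a sample left out. The 2 lower became 0 without a filter, 1 with the blind filter, 4 with DESeq2 and 0 to 2 with a sample left out. The members' median log2 fold change of 0.27 became 0.10 with the blind filter, -0.05 with limma at either pseudocount (beside -0.07 and -0.09 for all genes), 0.07 for the 21 members with at least 300 counts, and 0.16 to 0.47 with a sample left out.

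Replicate numbers are shared between the groups. The correlations of the deviations of same-numbered samples were -0.136, -0.0234 and 0.0363. With 3 samples per group these values cannot tell whether same-numbered samples were prepared together, which the labels do not say. With the replicate number as a block, 1 member was higher by adjusted p (Cyp2b10, adjusted p = 0.0258, against 0.0537 for Cyp4f16), 1 partner gene was higher and 0 were lower.

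Over the 25 genes chosen by the naming rule and their alternatives, 332 log2 fold changes were computed. Of these, 271 kept their direction and their side of the threshold, 29 lost and 15 gained the call, and 17 changed sign. Those of Cyp2b10 ran from 2.06 to 2.63 and those of Cyp4f16 from 0.95 to 1.35. The 5 genes that changed sign had log2 fold changes between -0.01 and 0.30 as reported. Cyp1a1 was at -0.11 and -0.14 with limma (pseudocounts 1 and 0.1), -0.06 with the replicate block and between -0.74 (without circEZH2_005 sample 3) and 0.55 with a sample left out. Cyp2d26 was at -0.04 with limma at either pseudocount and between -0.07 and -0.04 without vector sample 3, circEZH2_005 sample 2 or circEZH2_005 sample 3 (-0.06 for sample 2), and reached 0.34 without both samples. Cyp4f14 was at -0.05 with limma at either pseudocount and between -0.16 (without circEZH2_005 sample 2) and 0.33 with a sample left out. Cyp26b1 was at -0.07 without vector sample 1, and between -0.27 (without circEZH2_005 sample 2) and 0.89 with a sample left out. Rbp2 was at 0.14 without vector sample 1, 0.21 without circEZH2_005 sample 1, -0.18 without circEZH2_005 sample 2 and 0.10 without both samples.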

Other observations

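P450 genes of low abundance that were not members are given here as counts, with no comparison made. In vector samples 1 to 3 and circEZH2_005 samples 1 to 3, Cyp1a2, a relative of Cyp1a1 known from liver, had 10, 0 and 8 counts and 0, 9 and 8 counts. Cyp1b1, the other aryl hydrocarbon receptor target of the Cyp1 family, had 0, 10 and 4 counts and 22, 0 and 8 counts. Cyp24a1, which breaks down vitamin D, had 11 counts in vector sample 1 and 0 in the other samples. Cyp27b1, which makes the active hormone from the product of Cyp2r1 and is not typed as protein-coding in the table, had 0, 16 and 14 counts and 14, 0 and 0 counts. Cyp26a1, a retinoic acid hydroxylase, had 4 counts in all, in circEZH2_005 sample 2. The pseudogene Cyp4f41-ps, next to the Cyp4f genes of chromosome 17, had 83, 93 and 83 counts in vector and 54, 62 and 41 counts in circEZH2_005 samples.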
